A study of Mus musculus with 8 samples.

Results

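Organic ion and drug transporters were followed in whole kidney of mice given the calcimimetic cinacalcet. The set was chosen by gene symbol: every non-control probe whose RefSeq accession led to a symbol starting with Slc22a, Slco, Slc47a, Abcb1, Abcc or Abcg was a member. This gave 61 genes with 73 probes, of 20660 genes with a named probe. By family they were 25 Slc22a genes, 14 Slco, 2 Slc47a, 4 whose symbol starts with Abcb1, 10 Abcc and 6 Abcg. The letters of the rule also took in Abcb10, a mitochondrial transporter, Abcb11, the bile salt pump of liver, and Abcc8 and Abcc9, the sulfonylurea receptor subunits of potassium channels, which export no drugs. All 8 samples were labelled as kidneys of male mice 12 weeks old. The 4 control mice ate standard chow, and the 4 treated mice received cinacalcet hydrochloride for 5 days at a labelled dose of 1 mg per g body weight. No strain, allele or other agent was given. Each kidney RNA was hybridised to its own single-colour array. Nothing in the labels says that the numbered samples are separate animals, and the p-values therefore cover sample-to-sample spread that may be technical.

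These transporters carry drugs, toxins, hormone conjugates and metabolic waste across the proximal tubule, where most of them sit on one face of the cell. Organic anion transporters of the Slc22 family load the cell from blood in exchange for dicarboxylates, organic cation transporters load it along the membrane potential, and the Slc47 exchangers pass cations on to urine against protons. Organic anion transporting polypeptides (Slco genes) take up bulky amphipathic anions, and the Abcb, Abcc and Abcg pumps use ATP to export drugs and conjugates. In mouse kidney several of these genes are known to depend on sex hormones, among them Slco1a1, which needs androgen, and Slc22a6, which is higher in males.

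The array labels and the signal of sex-linked genes did not match on 3 arrays. Control 4, cinacalcet 2 and cinacalcet 3 had none of the 4 Y-linked genes measured (Ddx3y, Eif2s3y, Uty and Kdm5d) well above background, while the other 5 arrays had 3 or 4 of them. The X-inactivation transcript Xist was at 0.46 to 0.95 on these 3 arrays and at -6.99 to -4.22 on the other 5. Of those 5, cinacalcet 1 had Xist well above background, at -4.22, together with all 4 Y-linked genes. The rest were at -6.99 to -6.38, not well above background. Cinacalcet 1 is 1 of the 2 treated arrays with Y-linked signal. Levels here and below are log2 intensities relative to the 75th percentile of the same array, and levels of different genes cannot be ranked because each has its own probe. Of 14 genes known to differ between male and female mouse kidney, 10 separated the same 3 arrays from the other 5, 8 of them lower and 2 higher there. One of them, Slc7a13, a transporter gene of the late proximal tubule, was at -5.63 to -3.29 on the 3 arrays and at 3.74 to 5.37 on the other 5. The files do not tell which mice these 3 samples came from, so their identity, and with it their group label, is in doubt. Every difference over 8 arrays takes the labels as given. Results below are therefore also given with Y-linked signal as a block in the fit and for the 5 arrays that had it.

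Kidney cell types were read from marker lists. The 10 proximal tubule markers all passed the filter on background, 1 of them (the sulfate carrier Slc13a1) fell with cinacalcet (log2 difference -0.98, limma adjusted p = 0.0100), and their summed level was 10.80 to 10.91 on control arrays and 10.83 to 10.95 on cinacalcet arrays. Slc7a13 of this list was well above background on only 2 of 4 cinacalcet arrays, and the principal cell marker Scnn1g did not pass the filter. The summed proximal tubule level was 10.82 to 10.84 on the 3 arrays without Y-linked signal, inside the range of the other 5. The mean log2 level of the same markers was lower on those 3 arrays, at 4.77 to 5.17 against 5.73 to 5.99. Most of this gap came from Slc7a13, which was at -5.63 to -3.29 there and at 3.74 to 5.37 on the other 5. Thick ascending limb markers had a higher summed level on those 3 arrays, at 9.12 to 9.15 against 8.80 to 8.94. So did podocyte markers, at 4.91 to 5.23 against 4.32 to 4.86. Mean log2 levels were higher there for distal convoluted tubule markers, at 1.98 to 2.56 against 1.38 to 1.84. They were also higher for intercalated cell markers, at 2.36 to 2.49 against 1.96 to 2.32. Summed levels of these latter lists overlapped, and the remaining lists overlapped in both measures. Red cell markers had a lower summed level with cinacalcet, at 6.32 to 8.04 against 8.63 to 9.14, and all 3 of them passed the test. Fat markers ranged widely, with a summed level of 4.12 to 7.06 in controls and 2.12 to 6.01 with cinacalcet, and 1 of 5, Ucp1, passed as lower. In the hepatocyte list 1 of 5 markers, Ttr, passed as lower, and their summed level was 4.16 to 4.60 in controls and 4.25 to 4.87 with cinacalcet. Of the 4 adrenal markers Cyp11b1 and Cyp11a1 did not pass the filter on background. Hsd3b1, a steroid enzyme of the same list, was detected on 2 of 4 control and 4 of 4 cinacalcet arrays, lay higher with cinacalcet without overlap, and passed with the block (1.49, limma adjusted p = 0.0459) but not without it (1.67, limma adjusted p = 0.0592). Star of that list did not pass (0.36, limma adjusted p = 0.247). The leukocyte list had a mean log2 level of -0.64 to -0.45 in controls and -1.71 to -0.97 with cinacalcet, and its macrophage marker Adgre1 fell by 1.65 on the log2 scale (limma adjusted p = 0.02). Ptprc, a marker of all leukocytes, did not overlap between groups either but did not pass (-0.54, limma adjusted p = 0.0736). The part of these cell types in the results below was not tested. In whole tissue, fewer cells of a type and less RNA per cell cannot be told apart.

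Of the 61 transporter genes 46 reached the detection minimum, a signal well above background on 4 or more arrays, and were tested, 44 of them on all 8 arrays. Of the 15 left out, 13 were not well above background on any array. These include Slc22a3 (the organic cation transporter Oct3), the liver transporters Slco1b2 and Abcb11, Abcg8, and the testis genes Slco6c1 and Slco6d1. Slco1c1, the thyroxine carrier of brain vessels, was detected on control 1 and cinacalcet 1, and Abcg5, the sterol pump partner of Abcg8, on cinacalcet 2 and 4.

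Cinacalcet against control changed 2 of the 46 genes, both lower, at an adjusted p under 0.05 in limma over all genes. This is 4.35% of the members, beside 8.02% of all 14209 genes tested, 3.37% higher and 4.64% lower. In direction, 23 members had a positive estimate and 23 a negative one, with a median log2 difference of 0.04, beside -0.03 over all genes. With Y-linked signal as a block 13 members passed, 10 lower and 3 higher, or 28.3% beside 17.0% of all genes, 6.64% higher and 10.4% lower. On the 5 arrays with Y-linked signal 10 members passed, 7 lower and 3 higher, or 21.7% beside 7.85% of all genes, 2.40% higher and 5.45% lower. The 2 genes of the fit without the block were among the 13, and 9 of the 13 also passed on the 5 arrays. One control array weighed heavily: without control 4, 12 members passed in place of 2 (26.1%), beside 23.6% of all genes. Control 4 is the only control without Y-linked signal. Once it is left out, all controls have that signal and cinacalcet 2 and 3 do not. That count therefore does not separate treatment from the split by Y-linked signal. The 4 cinacalcet arrays did not overlap the 4 controls in 4 members (8.70%), 2 higher and 2 lower, beside 17.8% of all genes, 8.01% higher and 9.80% lower.

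Much of the spread followed Y-linked signal rather than the labelled groups. In 22 of the 46 members (47.8%) the 3 arrays without Y-linked signal did not overlap the other 5, beside 24.4% of all genes tested, and whether these shares differ was not tested. The 3 arrays lay higher in 11 of the 22 genes and lower in 11, so neither direction prevailed. Over all genes 9.54% lay higher and 14.9% lower. This comparison is a description, since the samples were not labelled that way. The split crossed the families, with 11 of 21 tested Slc22a genes, 4 of 8 Slco genes and 6 of 15 pump genes of the Abc families separating. The widest gaps were in Slco1a1, Slco4c1 and Abcc3, that of Slco4c1 being a lower bound because it was not well above background on the 3 arrays.

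**Figure D1:**
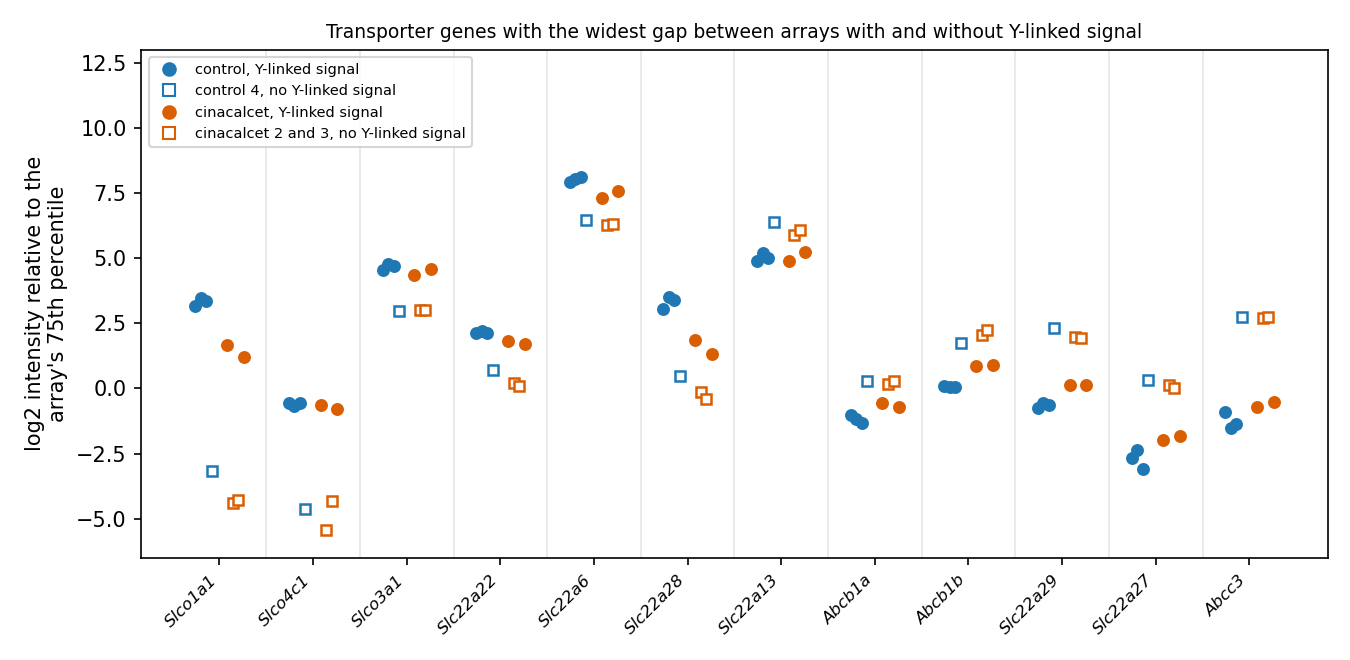
Level of the 12 transporter genes with the widest gap between arrays with and without Y-linked signal, as log2 intensity relative to the 75th percentile of each array. Each symbol is 1 array, blue for control and orange for cinacalcet, and open squares mark control 4, cinacalcet 2 and cinacalcet 3, which lacked Y-linked signal and lie together in each gene, for Slco1a1 at -4.41 to -3.16 against 1.23 to 3.46.

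Among the organic anion transporting polypeptides, Slco1a6 was the most firmly changed member. Slco1a6 belongs to the Oatp1a subfamily and is expressed in mouse kidney. On control arrays 1 to 4 it was at 5.11, 5.22, 5.40 and 4.87, and on cinacalcet arrays 1 to 4 at 4.02, 4.14, 4.29 and 3.62. All 4 treated arrays lay below all 4 controls, with or without Y-linked signal. Its mean fell 2.2-fold, from 5.15 ± 0.22 to 4.01 ± 0.29 (SD, n = 4 each), a log2 fold change of -1.14 with SE 0.17 (limma adjusted p = 0.0117). It passed whichever single array was omitted (limma adjusted p from 0.00818 to 0.0451), with the block (-1.15, limma adjusted p = 0.00809) and among the 5 arrays having Y-linked signal (-1.43, limma adjusted p = 0.0243).

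Slco1a1, its neighbour on chromosome 6 and an uptake carrier of steroid conjugates and other anions at the brush border, varied far more. On control arrays 1 to 4 its level was 3.19, 3.46, 3.37 and -3.16, and on cinacalcet arrays 1 to 4 it was 1.66, -4.41, -4.30 and 1.23. The 3 arrays without Y-linked signal stood at least 4.39 log2 units below the rest, and cinacalcet 3 was not well above background. Within each set the cinacalcet arrays were the lower ones. The fit over 8 arrays gave a log2 difference of -3.17 with SE 2.01, which did not pass (limma adjusted p = 0.337). With the block it was -1.64 with SE 0.17 (limma adjusted p = 0.00377), and on the 5 arrays -1.90 with SE 0.16 (limma adjusted p = 0.0174). The single control and the 2 cinacalcet arrays without Y-linked signal differed by -1.19. That value and the one with the block rest in part on cinacalcet 3, where the level was at background, so they are not exact sizes.

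The bases just upstream of both genes are shown because the neighbours shared the lower cinacalcet values but not the split. Each window holds the 250 bases before the RefSeq start on the minus strand of GRCm38.p6, Slco1a1 at chr6:141946963-141947212 and Slco1a6 at chr6:142186150-142186399. Capitals mark AGGTCA, the arm of many nuclear receptor elements, or TGACCT on the other strand.
Slco1a1: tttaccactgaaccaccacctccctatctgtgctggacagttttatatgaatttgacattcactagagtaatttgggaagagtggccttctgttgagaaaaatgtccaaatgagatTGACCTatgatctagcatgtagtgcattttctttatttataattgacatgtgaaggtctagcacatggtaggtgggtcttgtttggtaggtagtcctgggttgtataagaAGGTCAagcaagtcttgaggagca
Slco1a6: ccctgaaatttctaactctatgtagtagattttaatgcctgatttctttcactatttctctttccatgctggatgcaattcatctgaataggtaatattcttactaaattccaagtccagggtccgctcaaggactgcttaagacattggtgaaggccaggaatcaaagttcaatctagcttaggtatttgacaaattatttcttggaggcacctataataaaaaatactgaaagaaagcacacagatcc
The letters occurred on both strands in the Slco1a1 window and not in that of Slco1a6, and 14.0% of all 32851 windows of this length in the RefSeq table hold them. They occurred in 6 of 34 members with a window, among them Slc22a27 and Abcg2, which separated by Y-linked signal, and Abcc2 and Abcc10, which did not. AGAACA, the arm of steroid receptor elements, was also searched and occurred in neither window. Whether such letters bear on the split was not tested. Aligned to each other, the windows were identical at 150 of 208 aligned bases. Gaps were left out of this count and no unrelated windows were aligned, so it does not show a shared upstream sequence.

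Slco4c1, a basolateral carrier of digoxin and thyroid hormone in human and rat kidney, split the arrays without a treatment difference. It was at -0.56, -0.69, -0.54 and -4.62 on control arrays 1 to 4 and at -0.65, -5.46, -4.34 and -0.80 on cinacalcet arrays 1 to 4. It was not well above background on the 3 arrays without Y-linked signal, so the values there are only upper bounds. On the other 5 arrays the cinacalcet difference was -0.13 with SE 0.09 (limma adjusted p = 0.383). Slco3a1, which carries prostaglandins in human cells, was at 2.99 to 3.01 on those 3 arrays and at 4.35 to 4.79 on the rest, and its cinacalcet difference with the block was -0.12 (limma adjusted p = 0.385). A dimmer probe of Slco3a1 gave the same split, at 2.24 to 2.51 against 3.90 to 4.23. Slco2a1, the prostaglandin transporter, lay the other way, at 2.73 to 2.92 without Y-linked signal and 1.91 to 2.63 with it. The remaining members of the family, Slco1a4, Slco2b1 and Slco4a1, did not pass in any of these 3 fits, although Slco4a1 passed as higher without cinacalcet 4 (limma adjusted p = 0.0355).

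Among basolateral organic anion transporters Slc22a6 and Slc22a8 lay in opposite directions. Slc22a6 encodes Oat1, the classic carrier of para-aminohippurate. Its level was 7.93, 8.04, 8.10 and 6.46 on control arrays 1 to 4 and 7.33, 6.26, 6.30 and 7.57 on cinacalcet arrays 1 to 4. The arrays without Y-linked signal were lowest, and within each set cinacalcet was lower. The log2 difference over 8 arrays was -0.77 with SE 0.45 (limma adjusted p = 0.302). With the block it was -0.43 with SE 0.10 (limma adjusted p = 0.0307), and on the 5 arrays -0.57 with SE 0.11 (limma adjusted p = 0.0442). Slc22a8 encodes Oat3, which takes up larger anions and several drugs. It was at 1.28, 0.68, 0.96 and 1.95 in controls and 1.39, 2.00, 2.39 and 1.69 with cinacalcet. Here the arrays without Y-linked signal were higher than the rest. Its log2 difference of 0.65 did not pass over 8 arrays, nor did 0.45 with the block (limma adjusted p of 0.207 and 0.103).

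Slc22a7, encoding Oat2, a carrier of nucleotides and other small anions, had, among the 46 members, the largest cinacalcet difference where Y-linked signal was present. Controls 1 to 4 were at 5.08, 5.46, 5.13 and 6.54, and cinacalcet arrays 1 to 4 at 2.05, 5.76, 6.00 and 3.28. Treated arrays 1 and 4 lay far below every control, whereas treated arrays 2 and 3 lay above controls 1 to 3 and below control 4. Over 8 arrays the difference of -1.28 with SE 0.88 did not pass (limma adjusted p = 0.374). With the block it was -1.88 with SE 0.42 (limma adjusted p = 0.0248), and on the 5 arrays -2.56 with SE 0.37 (limma adjusted p = 0.0309). Without Y-linked signal the 2 cinacalcet arrays differed from control 4 by -0.66, and whether the sets differ was not tested.

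Among the organic cation carriers 1 gene, Slc22a2, passed as lower with the block. Slc22a2, encoding the basolateral carrier Oct2, was at 4.98, 5.25, 5.23 and 4.27 on control arrays 1 to 4 and at 4.34, 3.44, 3.55 and 4.24 on cinacalcet arrays 1 to 4. Cinacalcet was lower in both sets of arrays, but cinacalcet 1 lay just above control 4. The log2 difference of -1.04 with SE 0.28 missed the threshold over 8 arrays (limma adjusted p = 0.0624). With the block it was -0.83 with SE 0.08, a 1.78-fold fall (limma adjusted p = 0.00377), and on the 5 arrays -0.86 (limma adjusted p = 0.0275). Slc47a1, encoding the luminal proton exchanger Mate1, was at 4.05, 3.86, 3.92 and 3.25 in controls and 3.63, 3.22, 3.21 and 3.57 with cinacalcet. Its arrays without Y-linked signal were the lowest, and the cinacalcet difference of -0.24 with the block did not pass (limma adjusted p = 0.0912). Slc47a2 was dim, at -4.03 to -2.70, and its difference did not pass (limma adjusted p = 0.601).

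Of the carnitine and zwitterion carriers, Slc22a4 was the other member called over 8 arrays. Slc22a4, encoding the ergothioneine carrier Octn1, was at 2.60, 2.76, 2.62 and 2.41 in controls 1 to 4 and at 2.04, 1.86, 1.98 and 2.34 with cinacalcet. No treated array reached the lowest control. It fell 1.46-fold, from 2.60 ± 0.14 to 2.06 ± 0.20 (SD, n = 4 each), a log2 fold change of -0.54 with SE 0.12 (limma adjusted p = 0.0363). The call held with the block (-0.48, limma adjusted p = 0.0136), was lost on the 5 arrays (-0.47, limma adjusted p = 0.0722), and was lost without control 1, 2 or 3 or cinacalcet 1, 2 or 3 (limma adjusted p up to 0.104). The carnitine carrier Slc22a5 ranged from 2.22 to 2.55 and differed by 0.08 with SE 0.09 (limma adjusted p = 0.581). Slc22a21, a further carnitine carrier, differed by 0.16 (limma adjusted p = 0.351).

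**Figure D2:**
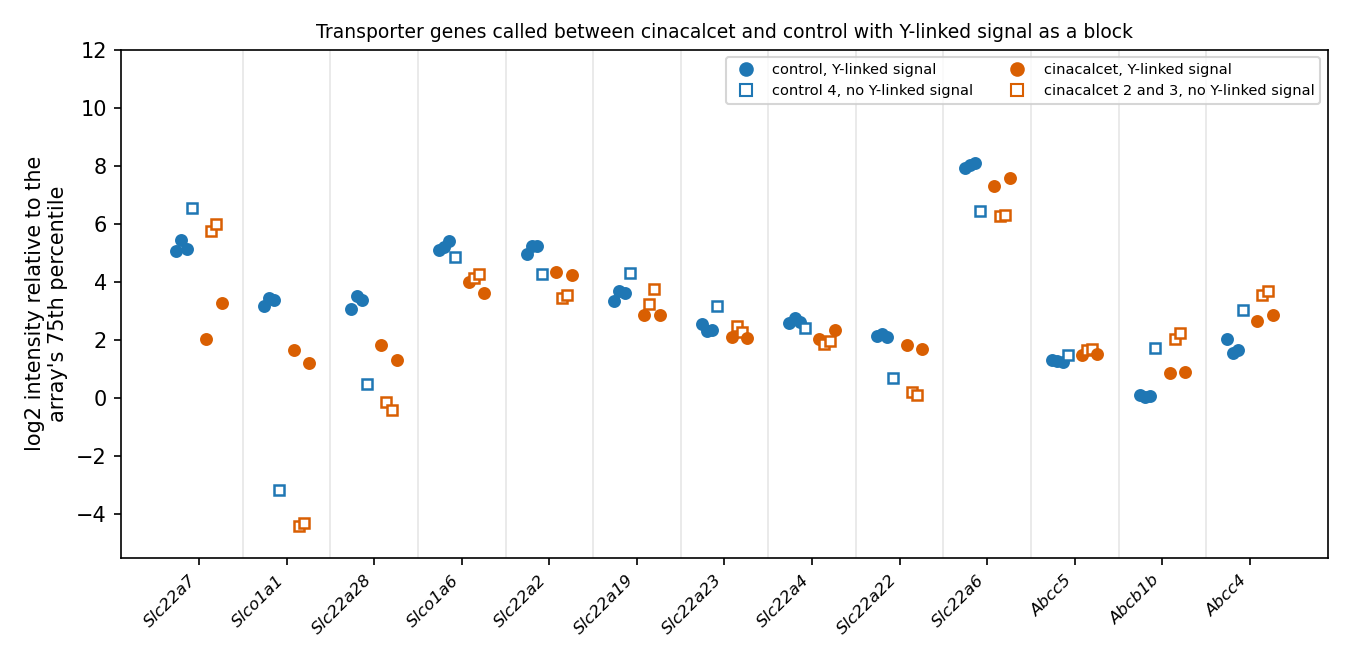
Level of the 13 transporter genes that passed between cinacalcet and control with Y-linked signal as a block, ordered by that difference, as log2 intensity relative to the 75th percentile of each array. Each symbol is 1 array, and open squares lack Y-linked signal. Slco1a6 and Slc22a4 also passed without the block, and in Slc22a7 cinacalcet 1 and 4, at 2.05 and 3.28, lie far below the rest.

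Among the apical and less common anion carriers, Slc22a19 and Slc22a22 passed with the block. Slc22a19, encoding the rodent carrier Oat5, was at 3.35, 3.68, 3.61 and 4.30 in controls and 2.87, 3.25, 3.78 and 2.88 with cinacalcet. Its log2 difference was -0.71 with SE 0.13 with the block (limma adjusted p = 0.0146) and -0.54 over 8 arrays (limma adjusted p = 0.215). Slc22a22, the prostaglandin-specific anion transporter of mouse kidney, was at 2.13, 2.21, 2.12 and 0.70 in controls and 1.83, 0.20, 0.10 and 1.70 with cinacalcet. It was lowest without Y-linked signal, and cinacalcet was lower in both sets. Its difference was -0.44 with SE 0.07 with the block (limma adjusted p = 0.00864) and -0.39 on the 5 arrays (limma adjusted p = 0.0514). Slc22a12, encoding the urate carrier Urat1, was at 3.27 on control 4 and 4.03 to 4.56 on the other 7 arrays, and did not pass in any of the 3 fits (limma adjusted p of 0.13 to 0.728). Slc22a13, an apical carrier of urate and nicotinate in man, was at 5.89 to 6.39 without Y-linked signal and 4.91 to 5.22 with it, with no treatment call (limma adjusted p of 0.533 to 0.911). Slc22a23, a family member without a settled substrate, passed with the block as lower (-0.49 with SE 0.12, limma adjusted p = 0.0331), and control 4 at 3.17 was its highest array.

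Neighbouring Slc22a genes on chromosome 19 split the arrays in different directions. Slc22a28 was lower on the 3 arrays without Y-linked signal, and Slc22a27 and Slc22a29, which lie on either side of it, were higher there. Slc22a19 did not separate these arrays, and Slc22a26 did so by only 0.03. Slc22a28 was at 3.06, 3.52, 3.39 and 0.48 on control arrays 1 to 4 and at 1.85, -0.15, -0.42 and 1.32 on cinacalcet arrays 1 to 4. Both cinacalcet arrays with Y-linked signal lay below the 3 controls with it. The difference with the block was -1.39 with SE 0.23, a 2.62-fold fall (limma adjusted p = 0.0103), and on the 5 arrays -1.74 (limma adjusted p = 0.0264). A further probe of Slc22a28 had the larger difference of -3.96 against -1.96 over 8 arrays, neither of which passed, but it was not well above background on cinacalcet 3, so its size is not exact.

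Slc22a29 was at -0.75, -0.57, -0.62 and 2.33 in controls and at 0.13, 1.98, 1.93 and 0.14 with cinacalcet. It was higher with cinacalcet on the 5 arrays by 0.78 with SE 0.08 (limma adjusted p = 0.0243), while the 2 cinacalcet arrays without Y-linked signal differed from control 4 by -0.37, and with the block it did not pass (0.37, limma adjusted p = 0.257). Slc22a27 was at -2.67, -2.37, -3.09 and 0.31 in controls and -1.96, 0.11, 0.03 and -1.81 with cinacalcet, and its difference did not pass in the 3 fits (limma adjusted p of 0.0802 to 0.437). Slc22a26 was at -0.19, 0.66, 0.39 and -0.22 in controls and 0.03, -2.07, -2.05 and 0.07 with cinacalcet. Its control 4 lay close to control 1, so only the 2 cinacalcet arrays without Y-linked signal stood well apart. These genes are close paralogs and their probes may share signal.

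The windows of Slc22a28 and Slc22a29 are printed because these neighbours split the arrays in opposite directions and were the most alike of the chromosome 19 pairs aligned. Both lie on the minus strand of GRCm38.p6, at chr19:8131983-8132232 and chr19:8218901-8219150, with the 250 bases before the RefSeq start in 5′ to 3′ order. Capitals mark bases that are identical in a global alignment of both.
Slc22a28: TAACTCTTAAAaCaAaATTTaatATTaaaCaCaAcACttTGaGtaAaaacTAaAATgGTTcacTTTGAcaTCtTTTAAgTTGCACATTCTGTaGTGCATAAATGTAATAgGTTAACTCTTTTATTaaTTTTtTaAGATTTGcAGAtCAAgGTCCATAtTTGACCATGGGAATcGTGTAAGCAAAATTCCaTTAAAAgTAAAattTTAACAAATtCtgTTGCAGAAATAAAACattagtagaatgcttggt
Slc22a29: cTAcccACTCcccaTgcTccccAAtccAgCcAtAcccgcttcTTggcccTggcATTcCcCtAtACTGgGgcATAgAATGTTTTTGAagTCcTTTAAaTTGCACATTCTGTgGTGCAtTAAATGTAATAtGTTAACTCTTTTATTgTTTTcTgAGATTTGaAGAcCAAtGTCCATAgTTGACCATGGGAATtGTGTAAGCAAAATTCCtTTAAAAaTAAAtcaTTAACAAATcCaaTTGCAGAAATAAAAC
The windows were identical at 183 of 219 aligned bases (83.6%), gaps again left out. The other 9 pairs among Slc22a19, Slc22a26, Slc22a27, Slc22a28 and Slc22a29 shared 133 to 170 bases, or 67.5% to 76.0% of those aligned. Toward the 5′ end of the Slc22a29 window the capitals are scattered. No unrelated windows were aligned, so the values do not show how far the likeness exceeds that of unrelated windows.

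**Figure D3:**
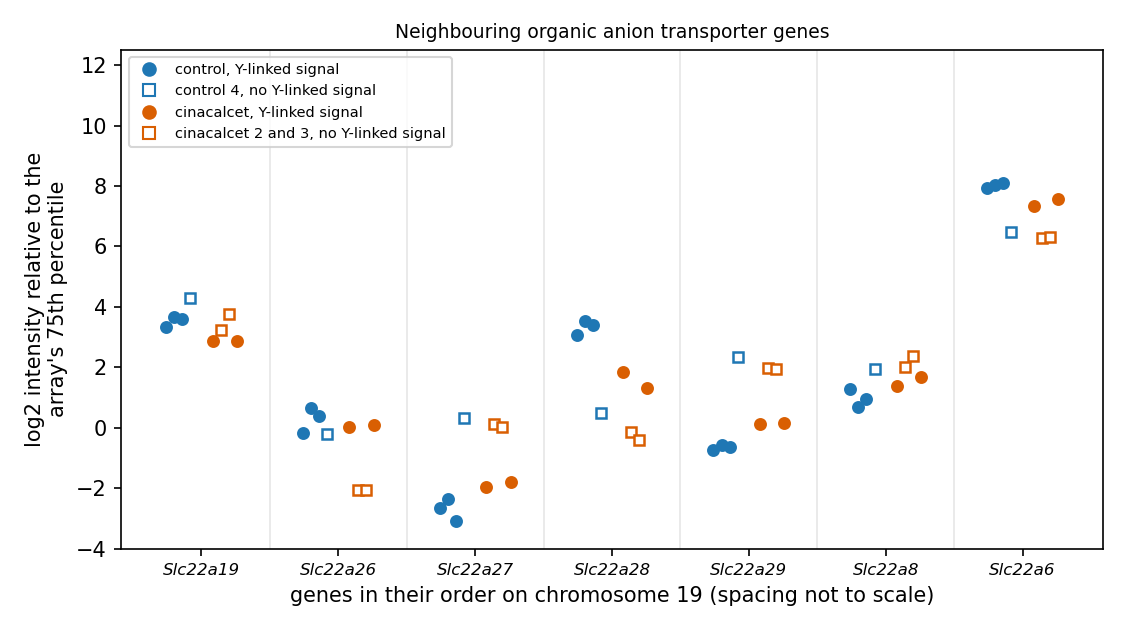
Level of 7 neighbouring Slc22a genes in their order on chromosome 19, as log2 intensity relative to the 75th percentile of each array, with blue for control, orange for cinacalcet and open squares for arrays without Y-linked signal. The open squares lie above the filled circles in Slc22a27, Slc22a29 and Slc22a8 and below them in Slc22a28 and Slc22a6.

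Among the efflux pumps, 3 genes passed as higher with the block and none in the fit over 8 arrays without it. Abcc4, encoding Mrp4, an apical exporter of urate, cyclic nucleotides and antiviral drugs, was at 2.02, 1.57, 1.67 and 3.04 in controls 1 to 4 and at 2.65, 3.57, 3.70 and 2.86 with cinacalcet. Cinacalcet was higher in both sets, and so were the arrays without Y-linked signal. Its log2 difference was 1.12 with SE 0.37 over 8 arrays (limma adjusted p = 0.0981), 0.85 with SE 0.13 with the block (limma adjusted p = 0.00896) and 1.00 on the 5 arrays (limma adjusted p = 0.0362). Abcb1b, one of the rodent P-glycoprotein genes, was at 0.10, 0.05, 0.07 and 1.74 in controls and at 0.87, 2.05, 2.24 and 0.91 with cinacalcet. The 3 controls with Y-linked signal lay within 0.05 of each other, and both cinacalcet arrays with it were higher. The difference was 1.03 with SE 0.48 over 8 arrays (limma adjusted p = 0.204), 0.67 with SE 0.10 with the block, a 1.60-fold rise (limma adjusted p = 0.00691), and 0.82 on the 5 arrays (limma adjusted p = 0.0169). Abcb1a, its paralog and neighbour, was at -1.02, -1.16, -1.34 and 0.29 in controls and -0.57, 0.16, 0.30 and -0.70 with cinacalcet, again higher without Y-linked signal, but did not pass in the 3 fits (limma adjusted p of 0.0567 to 0.345). Abcc5, an exporter of cyclic nucleotides, was at 1.24 to 1.48 in controls and 1.49 to 1.70 with cinacalcet. Of the 3 fits it passed with the block alone (0.21 with SE 0.05, limma adjusted p = 0.0363), and its other 3 probes gave differences of 0.10 to 0.33 over 8 arrays.

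Abcc3, encoding Mrp3, a basolateral exporter of glucuronides, showed the clearest split among the pumps. It was at -0.89, -1.51, -1.36 and 2.76 on control arrays 1 to 4 and at -0.70, 2.70, 2.76 and -0.51 on cinacalcet arrays 1 to 4. The 3 arrays without Y-linked signal lay at 2.70 to 2.76 whatever their treatment, and the other 5 lay at least 3.21 below them. No treatment difference passed in the 3 fits (limma adjusted p of 0.104 to 0.506). Abcg2, an apical exporter of urate and many drugs, was at 6.99, 7.03, 7.06 and 6.56 in controls and 6.80, 6.49, 6.55 and 6.73 with cinacalcet, lowest without Y-linked signal. Its cinacalcet difference of -0.26 with SE 0.13 did not pass (limma adjusted p = 0.231). Abcc2, encoding the apical conjugate pump Mrp2, ranged from 2.56 to 3.19 and differed by 0.20 with SE 0.11 (limma adjusted p = 0.264). Abcg1, a sterol exporter of macrophages and other cells, was at 0.13 to 0.27 in controls and 0.41 to 1.09 with cinacalcet without overlap, and missed the threshold over 8 arrays and with the block (limma adjusted p of 0.0800 and 0.0513).

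The size of the cinacalcet difference varied between both sets of arrays among the 13 genes called with the block. That these 13 had the same sign in both sets follows largely from how the block fit selects genes, and over all 46 members 28 had the same sign. The difference was larger with Y-linked signal in 9 of the 13, as for Slco1a6 at -1.43 with it and -0.65 without it, and for Slc22a28 at -1.74 and -0.76. It was smaller in the other 4, as for Slc22a23 at -0.31 and -0.80, and for Slc22a22 at -0.39 and -0.54. Those without Y-linked signal rest on 1 control array, so no test was made. On the 5 arrays with Y-linked signal the groups did not overlap in 28 of the 46 members (60.9%), beside 50.9% of all genes.

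**Figure D4:**
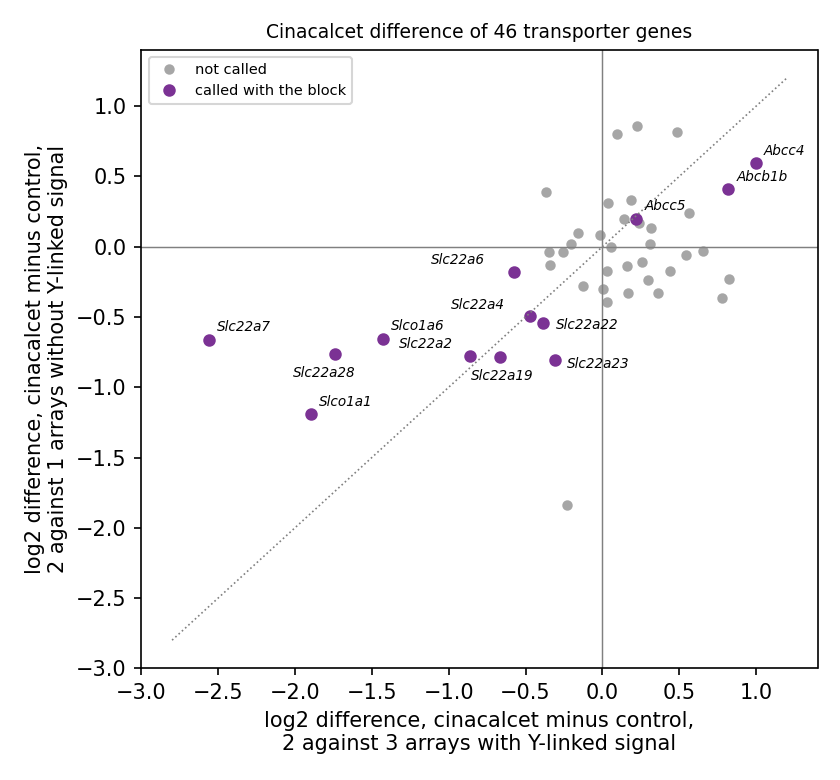
Difference of the 46 tested transporter genes between cinacalcet and control, in log2 units, on the arrays with Y-linked signal (x axis, 2 against 3 arrays) and on those without it (y axis, 2 against 1 arrays). Purple points are the 13 genes that passed with the block, which are negative on both axes or positive on both, and on the dotted line both values are equal.

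Partners and regulators of these transporters were read from a list of 35 genes, of which 34 were tested. Over 8 arrays 2 were higher and 1 lower, or 8.82% beside 8.02% of all genes. With the block 5 were higher and 4 lower, or 26.5% beside 17.0%. Slc2a9, the basolateral urate transporter, was higher by 0.82 with SE 0.20 (limma adjusted p = 0.0454), and the cholesterol exporter gene Abca1 by 0.75 (limma adjusted p = 0.0146). Nr3c1, the glucocorticoid receptor gene, fell by 0.55 on the log2 scale (limma adjusted p = 0.0103), with 4.37 to 4.58 in controls and 3.90 to 4.03 with cinacalcet. On the 5 arrays with Y-linked signal Nr3c1 passed (-0.55, limma adjusted p = 0.0268). Slc2a9 and Abca1 did not pass there (0.66 and 0.56, limma adjusted p of 0.138 and 0.0501), although both passed with the block (limma adjusted p of 0.0308 and 0.0102). With the block the luminal phosphate and anion carriers Slc17a1 and Slc17a3 were also lower, at -0.42 and -1.24 (limma adjusted p of 0.0112 and 0.0045), as was Pdzk1, a scaffold that holds apical transporters (-0.28, limma adjusted p = 0.024). The proximal tubule factor Hnf4a and the xenobiotic receptor genes Nr1i2 and Nr1i3 did not pass in either fit. Nr1i2, the pregnane X receptor gene, lay higher on the 3 arrays without Y-linked signal, at -0.16 to 0.02 against -1.85 to -1.12.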

How the data were processed

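RNA of 8 kidney samples was measured on single-colour Agilent arrays. The deposited files hold spot intensity on a linear scale, background-corrected by Agilent Feature Extraction 11.0.1.1 per the file headers, while the submitters' processing notes name version 9.5, and no normalization between arrays is recorded. A single slide held all arrays. The 75th percentile of intensity ranged from 202.9 to 257.1, the share of spots well above background from 51.8% to 58.0%, and the number of arrays limits the precision. Here control spots and outlier spots were left out, spots of a probe averaged as log2, and the 75th percentile subtracted. Symbols came from RefSeq accessions (GRCm38.p6) for 27235 of 55681 probes, and 61 of 63 genes in the rule had a probe. The brightest probe well above background on at least 4 arrays stood for a gene. Groups were compared in limma 3.58.1 (R 4.3.3) over all 14209 genes with Benjamini-Hochberg adjustment, and the fit was tested on simulated data. Promoter windows are RefSeq's, and 34 of 46 tested genes had one.

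The members, lists and tests were chosen with earlier results of these data known. Genes named with full values passed in the fit with or without the block for Y-linked signal, had 1 of the 12 widest gaps, or belonged to 15 core kidney transporters, and others named were chosen after their values were seen. Alternatives were 2 other normalizations, 2 filters, probe means, 2 variance settings, 3 blocks, the 5 arrays with Y-linked signal and each array left out. Values of some genes are not reported here.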

Additional observations from a re-analysis of the deposited data

Results flagged for a closer look

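Single arrays stood far from the other 3 of their group in 15 of 92 groups of 4 examined, where chance gives about 1 in 20. The measure is the gap to the nearest other array divided by the range of the group, above Dixon's critical value, and 13 of the 15 cases concern control 4. The ratio was 0.97 for Abcb1b, 0.965 for Slco4c1, 0.959 for Slco1a1, 0.941 for Slc22a29, 0.939 for Slc22a22, 0.898 for Slc47a2, 0.895 for Slc22a6, 0.874 for Abcg2, 0.862 for Slco3a1, 0.855 for Abcc3, 0.851 for Abcb10, 0.848 for Slc22a28 and 0.839 for Slc22a12. Control 4 was the high array in Abcb1b, Abcc3 and Slc22a29 and the low one in the other 10. Cinacalcet 4 was high for Abcc10 (0.96) and control 1 low for Slco1a4 (0.854). Control 4 is the only control array without Y-linked signal, so a gene that splits the arrays by that signal tends to flag it. The cinacalcet group holds 2 such arrays, so the same split tends to flag no single array there.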

How the results depend on the processing

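The fit over 8 arrays called 2 members (4.35%) and 1139 of all genes (8.02%). Between groups 4 members did not overlap (8.70%, beside 17.8% of all genes). With the block for Y-linked signal 13 members (28.3%) and 2417 genes (17.0%) passed. On the 5 arrays with it 10 members passed (21.7%, beside 7.85% of all genes) and 28 did not overlap (60.9%, beside 50.9%). Array weights gave 26 members and 5438 genes (56.5% beside 38.3%). No filter on background gave 1 and 367 (1.64% beside 1.78%), and slide row as a block 1 and 921 (2.17% beside 6.48%). With single arrays left out, 1 to 12 members (2.17% to 26.1%) and 218 to 3356 of all genes (1.53% to 23.6%) were called. Members without overlap were then 4 to 23, and each count was highest without control 4. No share of all genes is given beside the 4 to 23, and groups of 3 and 4 arrays separate more readily than 4 and 4. Without control 4 all controls had Y-linked signal and cinacalcet 2 and 3 did not, so those counts do not separate treatment from it. Replicate number as a block left 0 members and 0 genes in limma, with 6 and 2869 at an unadjusted p under 0.05. Same-numbered arrays deviated together in 1 of 4 pairs (r of -0.56 to 0.34 across genes). In pairs 2, 3 and 4 only 1 of the arrays had Y-linked signal, so the check cannot tell whether the numbers pair the samples. The cause of these shifts was not tested. Slco1a6 passed in 18 of 19 alternatives and Slc22a4 in 9. Of the 27 genes named by rule, Slc22a12 and Slc22a13, never called, changed sign in some alternatives, and no other did. Slco1a1 and Slco4c1 were not tested with the filter at all 8 arrays. With 4 arrays a group, dim genes and differences below the spread cannot be told from none.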

Other observations

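Sulfonylurea receptor genes, the mitochondrial transporter gene and the further members given here were not called in any of the 3 fits. Abcc8 was at -2.01 to -1.42, Abcc9 at -0.12 to 0.60 and Abcb10 at 1.75 to 2.03, and none passed in the fits with or without the block (limma adjusted p of 0.474 to 0.977). Slc22a17, encoding a receptor for lipocalin-2, was at 3.57 to 3.68 in controls and 3.27 to 3.63 with cinacalcet (limma adjusted p = 0.139). Slc22a18 ranged only from 8.04 to 8.41 over all arrays, and Abcc10 from 1.98 to 2.36, with cinacalcet 4 the highest.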
